A study of Mus musculus with 32 samples.

Results

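Keratins are the intermediate filament proteins of epithelia, and the cornified envelope is the cross-linked protein shell of the outermost cells of squamous epithelium. Their genes were followed in the distal colon of 32 mice, with 1 expression array for each mouse. A probe set was taken where the platform annotation gave it a lone symbol that was a numbered Krt gene, an Sprr gene (small proline-rich proteins), Lor, Ivl, Trp63, Dsg3 or Dsc3. Of several probe sets for a gene, the brightest on average was used. The rule found 61 genes on 81 probe sets, among 18193 genes in all. They were 5 simple keratins (Krt7, Krt8, Krt18, Krt19 and Krt20), 28 genes of squamous epithelium, 22 hair follicle and nail keratins and 6 other keratins. Of the 28, 11 were grouped as cornified envelope genes, among them Sprr2j-ps, whose symbol marks a pseudogene. Sprr2j-ps was at the floor of the values on 25 of 32 arrays. Dsg3 and Krt9 had no probe set under the rule and were not analysed here.

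Wild type (WT) mice were set beside mice without Myd88 (Myd88-/-, written KO), both on a C57 BL6NCr background. Myd88 is the adaptor through which most Toll-like receptors and the receptors of IL-1 and IL-18 signal. Treated mice were 6 to 8 weeks old and received azoxymethane (AOM, a colon carcinogen) at 10 mg/kg into the peritoneum. After 1 week their drinking water held 2% dextran sodium sulfate (DSS, an agent that damages colon epithelium) for 3 days, and they were then killed. Each genotype had 10 treated and 6 untreated mice. The labels gave no age or handling for the untreated mice, no sex and no batch, and AOM and DSS were always given together.

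Keratins work as pairs of an acidic and a basic chain. The lining of the colon is a single layer of columnar cells whose filaments are built from the simple keratins Krt8 and Krt18, with Krt19 and, toward the surface, Krt20. Krt7 marks other simple and ductal epithelia and is usually scarce in the gut. Stratified squamous epithelium, such as the skin and the anal canal, makes Krt5 and Krt14 in its basal cells under the transcription factor p63 (Trp63). Its upper cells switch to Krt1 and Krt10 in skin or Krt4 and Krt13 in moist mucosa, and wounding adds Krt6, Krt16 and Krt17. Cornifying cells then make loricrin (Lor), involucrin (Ivl) and the Sprr proteins. The anal canal adjoins the distal end of the colon.

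Values are log2 signals after quantile normalization, on which a step of 1 is a doubling. The files had a floor of 3.32, reached on at least 1 array by 40 members and on all 32 arrays by Krt82, and the brightest signal was 14.54. Across genes, r between arrays from the same group was 0.935 to 0.985. The Myd88 probe set was lower in KO than in WT mice, by -0.73 ± 0.11 (SE) without treatment and -0.46 ± 0.09 with it (limma, adjusted p = 0.000925 and 0.00104), although treated KO arrays reached 8.31 and the lowest treated WT array read 8.265. The colon markers Car1, Slc26a3 and Lgals4 averaged 13.02, 13.19 and 13.47 and were never below 12.64. The mean of 14 skeletal muscle genes varied widely in each group, from 4.54 to 9.20 in untreated WT, 4.53 to 8.10 in untreated KO, 4.69 to 10.04 in treated WT and 4.81 to 9.41 in treated KO mice. None of the 14 was called in any contrast. For RNA integrity, control probe sets at the 3' end were set against those at the 5' end, and the log2 difference had group medians of 0.05 (untreated WT), 0.01 (untreated KO), 0.01 (treated WT) and -0.02 (treated KO).

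The promoters of 42 of the 61 members were found in RefSeq (GRCm38.p6), as 300 bases from 250 before to 50 after the start of the gene. They are shown for the simple keratin Krt20 and for Sprr1a, Sprr2d and Sprr2k, since the Sprr promoters shared motifs that most promoters lack. Of these, Sprr1a was not called in any contrast. The sequences run 5' to 3' on the strand of the gene, and capitals mark both motifs searched on either strand. They were TATAAA, the letters of the TATA box, and, for the transcription factor AP-1, its site TGANTCA. Krt20 lies at chr11:99438104-99438403 on the minus strand, Sprr1a at chr3:92485832-92486131 on the minus strand, Sprr2d at chr3:92338890-92339189 on the plus strand and Sprr2k at chr3:92432332-92432631 on the plus strand.
Krt20: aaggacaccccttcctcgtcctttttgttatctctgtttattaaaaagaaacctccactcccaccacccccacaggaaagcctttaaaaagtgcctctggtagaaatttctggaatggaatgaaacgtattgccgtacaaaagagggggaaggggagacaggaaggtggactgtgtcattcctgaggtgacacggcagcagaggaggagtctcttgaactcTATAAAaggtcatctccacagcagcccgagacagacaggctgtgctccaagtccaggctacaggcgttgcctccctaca
Sprr1a: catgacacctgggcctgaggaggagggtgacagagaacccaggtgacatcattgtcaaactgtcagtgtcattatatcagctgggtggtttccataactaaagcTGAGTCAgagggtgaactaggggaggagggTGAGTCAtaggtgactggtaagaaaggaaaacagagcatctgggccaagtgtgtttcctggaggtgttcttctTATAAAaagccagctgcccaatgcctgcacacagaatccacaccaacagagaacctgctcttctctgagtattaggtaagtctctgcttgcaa
Sprr2d: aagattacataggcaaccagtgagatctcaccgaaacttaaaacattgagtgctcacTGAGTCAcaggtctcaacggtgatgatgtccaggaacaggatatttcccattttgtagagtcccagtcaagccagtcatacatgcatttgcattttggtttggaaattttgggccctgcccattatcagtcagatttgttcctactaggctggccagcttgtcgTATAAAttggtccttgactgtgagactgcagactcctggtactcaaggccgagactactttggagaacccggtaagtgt
Sprr2k: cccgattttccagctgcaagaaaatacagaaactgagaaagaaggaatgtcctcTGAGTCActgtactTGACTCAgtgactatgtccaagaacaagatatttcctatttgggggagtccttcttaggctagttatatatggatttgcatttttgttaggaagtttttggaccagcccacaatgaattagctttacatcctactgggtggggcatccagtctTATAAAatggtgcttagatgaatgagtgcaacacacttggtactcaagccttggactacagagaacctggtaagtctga
TATAAA was present in all 10 cornified envelope promoters found, against 13.6% of 32851 promoters of all genes. TGANTCA was present in 9 of the 10, the exception being Sprr3, against 7.81% of all promoters. Of the 29 promoters of the other keratins outside the simple group, 16 held TATAAA and 2 held TGANTCA. The 4 promoters of simple keratins held TATAAA in 2 and TGANTCA in none. The promoters of Krt7 and Krt14, not shown, held neither motif. In Krt20, Sprr2d and Sprr2k the TATA box began 29 bases before the start. Such matches describe the letters of these windows and do not show that a factor was bound.

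Of the 5 simple keratins, Krt7, Krt8, Krt19 and Krt20 rose in treated KO against untreated KO mice, although Krt8 and Krt19 did not keep that direction in the values as deposited. In WT mice Krt7 was the lone simple keratin that passed. Krt7 and Krt20 were also higher in treated KO than in treated WT mice. Over all genes 18.7% were called in the KO response (8.69% higher, 10% lower), 1.82% in the WT response (0.605% higher, 1.22% lower) and 12.8% between the treated genotypes (6.24% higher and 6.57% lower in KO). The sizes differed: in KO mice Krt7 rose 1.98-fold, Krt20 1.62-fold, Krt19 1.14-fold and Krt8 1.10-fold. In whole tissue, fewer cells of a type and less RNA per cell cannot be told apart.

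Krt7 separated treated from untreated mice in both genotypes. It read 8.96 to 9.30 in untreated WT (median 9.05) and 9.11 to 9.37 in untreated KO mice (median 9.235). After treatment it read 9.42 to 10.01 in WT (median 9.72) and 9.62 to 10.93 in KO mice (median 10.18). Every treated array lay above every untreated array, and 6 of 10 treated KO arrays lay above all treated WT arrays. The rise was 0.61 ± 0.14 in WT (adjusted p = 0.0219) and 0.99 ± 0.14 in KO mice (adjusted p = 2.85e-05, limma). Treated KO exceeded treated WT by 0.52 ± 0.12 (adjusted p = 0.00539). The exact permutation test over mice, two-sided, gave p = 0.00025 in each genotype (0.00175 after Benjamini-Hochberg adjustment over 14 such tests). These tests were run only on results that had passed limma in the same values, so they are not independent support. The KO response and the genotype difference passed in 45 of 45 settings. The WT call was lost without untreated WT repeat 2, 5 or 6 (adjusted p up to 0.0553) and with the control probe difference as a covariate (0.53, adjusted p = 0.121).

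Krt20, a keratin of mature surface colonocytes, differed with genotype after treatment. It read 11.74 to 11.98 in untreated WT (median 11.84) and 11.41 to 11.94 in untreated KO mice (median 11.82). Treated WT arrays ran from 10.68 to 12.16 (median 11.72) and treated KO arrays from 11.72 to 12.94 (median 12.62). Of the treated KO arrays, 8 of 10 lay above all untreated KO arrays and 7 of 10 above all treated WT arrays. The rise in KO mice was 0.69 ± 0.19 (adjusted p = 0.00951) and treated KO exceeded treated WT by 0.75 ± 0.16 (adjusted p = 0.00301, limma). In WT mice the difference was -0.14 ± 0.19 (adjusted p = 0.809), with 3 treated arrays above and 5 below the untreated range. The difference between the responses was 0.83 ± 0.27 (95% interval 0.29 to 1.38) and did not pass (adjusted p = 0.201).

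Krt8 and Krt19 moved little. Krt8 ran from 13.30 to 13.45 in untreated KO (median 13.40) and from 13.43 to 13.63 in treated KO mice (median 13.55), and 9 of 10 treated arrays lay above the untreated ones. The rise was 0.14 ± 0.04 (adjusted p = 0.00699). Krt19 ran from 12.80 to 12.99 (median 12.94) and from 12.86 to 13.24 (median 13.11), a rise of 0.19 ± 0.06 (adjusted p = 0.0162). Without untreated KO repeat 3 the Krt19 call was lost (adjusted p = 0.0506). Both directions depended on scaling: in the values as deposited Krt8 changed by -0.09 and Krt19 by -0.09, neither passing. With arrays centred on their medians Krt8 changed by -0.003 and Krt19 by 0.00.

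Krt18, the partner of Krt8, was not called in any contrast. It read 11.58 to 11.83 in untreated WT (median 11.72), 11.70 to 12.01 in untreated KO (median 11.91), 11.43 to 12.23 in treated WT (median 11.87) and 11.53 to 12.63 in treated KO mice (median 12.18). The groups overlapped. Treated minus untreated was 0.27 ± 0.12 in KO mice (adjusted p = 0.125), and treated KO minus treated WT was 0.29 ± 0.10 (adjusted p = 0.0666). The 95% interval of that genotype difference was 0.08 to 0.50 for Krt18 and -0.06 to 0.07 for Krt8. These intervals hold for the normalized values only. As deposited, the treated WT and treated KO means were 13.30 and 13.55 for Krt8, and 11.78 and 12.16 for Krt18.

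**Figure D1:**
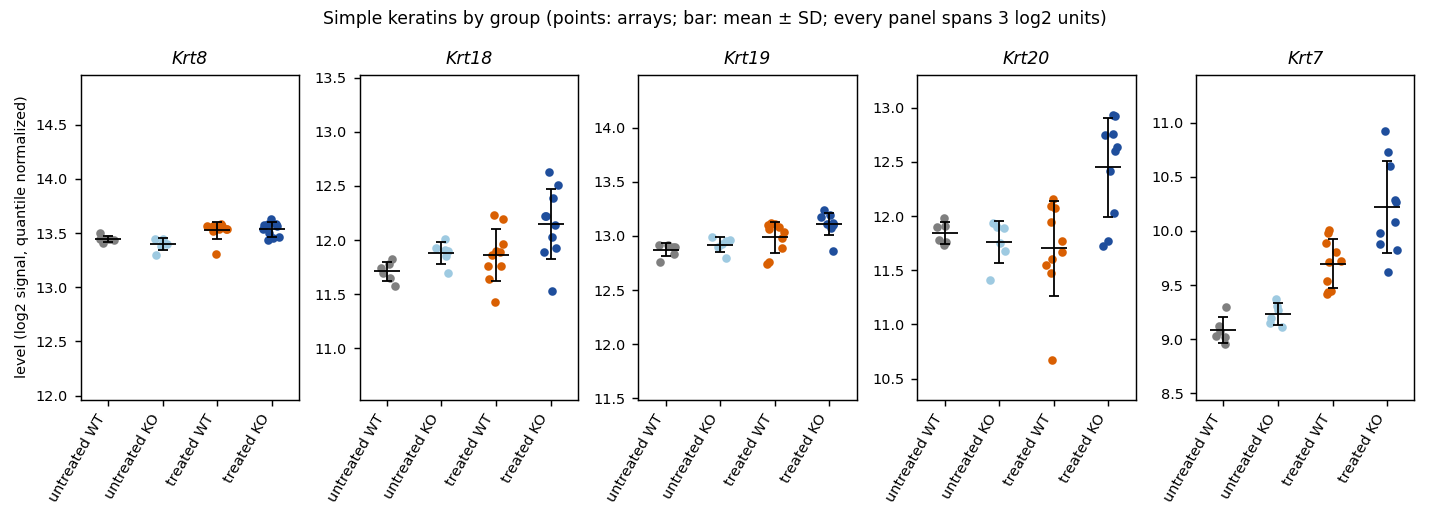
Log2 signal (vertical axis) of the 5 simple keratins in the 4 groups, 1 point for each array, with the mean and its SD as bars. All panels span the same number of log2 units. Krt7 is higher on every treated array than on any untreated array of its genotype, and Krt20 is high on most treated KO arrays.

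Partners of simple keratins at the junctions of colon cells gave a mixed picture in KO mice. Of 6 such genes 4 rose and 1 fell after treatment, with a median difference of 0.27, against a median of 0 over all genes. Over all genes 8.69% rose and 10% fell in KO mice. Dsc2, a desmosomal cadherin, rose by 0.64 ± 0.19 (adjusted p = 0.0141), and Epcam, an epithelial adhesion protein, by 0.31 ± 0.06 (adjusted p = 0.000625). Eppk1, an epiplakin that binds keratin filaments, fell by 0.88 ± 0.15 (adjusted p = 0.000176), from 9.89 ± 0.26 (SD, n = 6) to 9.01 ± 0.45 (SD, n = 10). Dsg2, the brightest that did not pass, differed by 0.19 ± 0.08 (adjusted p = 0.106). None of the 6 was called in WT mice.

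Hemidesmosome and basement membrane genes serve to anchor keratins to the matrix. Of 8 measured, 5 rose in treated KO mice and none fell (median 0.54), and 4 were higher in treated KO than in treated WT mice (median 0.40, range -1.21 to 0.93). Over all genes 8.69% rose in KO mice, and 6.24% were higher in treated KO than in treated WT mice. None of the 8 was called between untreated genotypes or for the difference between the responses. Lama3 and Lamb3, chains of laminin-332, rose by 1.16 ± 0.26 and 1.02 ± 0.14 (adjusted p = 0.0021 and 2.11e-05). Itgb4, the integrin that binds it, rose by 0.70 ± 0.22 (adjusted p = 0.0219). In WT mice none of the 8 was called, and the median difference was 0.04. Dst, the brightest not called, differed by 0.04 ± 0.16 in KO mice. Of 9 colonocyte identity genes 3 rose in KO mice: Cdx2 by 0.75 ± 0.17, Cdh17 by 0.52 ± 0.11 and Vil1 by 0.37 ± 0.12 (adjusted p = 0.00249, 0.00167 and 0.0247). The mean of the 9 ran from 11.40 to 11.56 in untreated KO and from 11.46 to 11.85 in treated KO mice, and its part in the simple keratin results was not tested. Of 7 smooth muscle genes, 6 immune cell genes and 7 genes of melanocytes, sebaceous glands or fat, none was called in either response or between the treated genotypes.

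Genes of squamous epithelium were unevenly expressed over the arrays. Their mean ran from 4.15 to 5.33 in untreated WT, 4.12 to 6.72 in untreated KO, 4.21 to 10.03 in treated WT and 4.28 to 6.62 in treated KO mice. Counting how many of the 28 reached a log2 level of 8 on each array, treated WT repeat 1 had 21, repeat 2 had 14, repeat 6 had 10, repeat 8 had 9, repeats 3 and 7 had 8, repeat 4 had 7 and repeats 5, 9 and 10 had 0. In treated KO mice repeat 3 had 10, repeats 8 and 10 had 9, repeats 4 and 5 had 2, repeat 7 had 1 and the other 4 had 0. Untreated KO repeats 3 and 5 had 8 and 5, and untreated WT repeats 1 and 2 had 3 and 1. The remaining 8 untreated arrays had 0. Arrays with 10 or more were found in treated mice, 3 in WT and 1 in KO, and 20 of the 28 genes were highest on treated WT repeat 1.

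**Figure D2:**
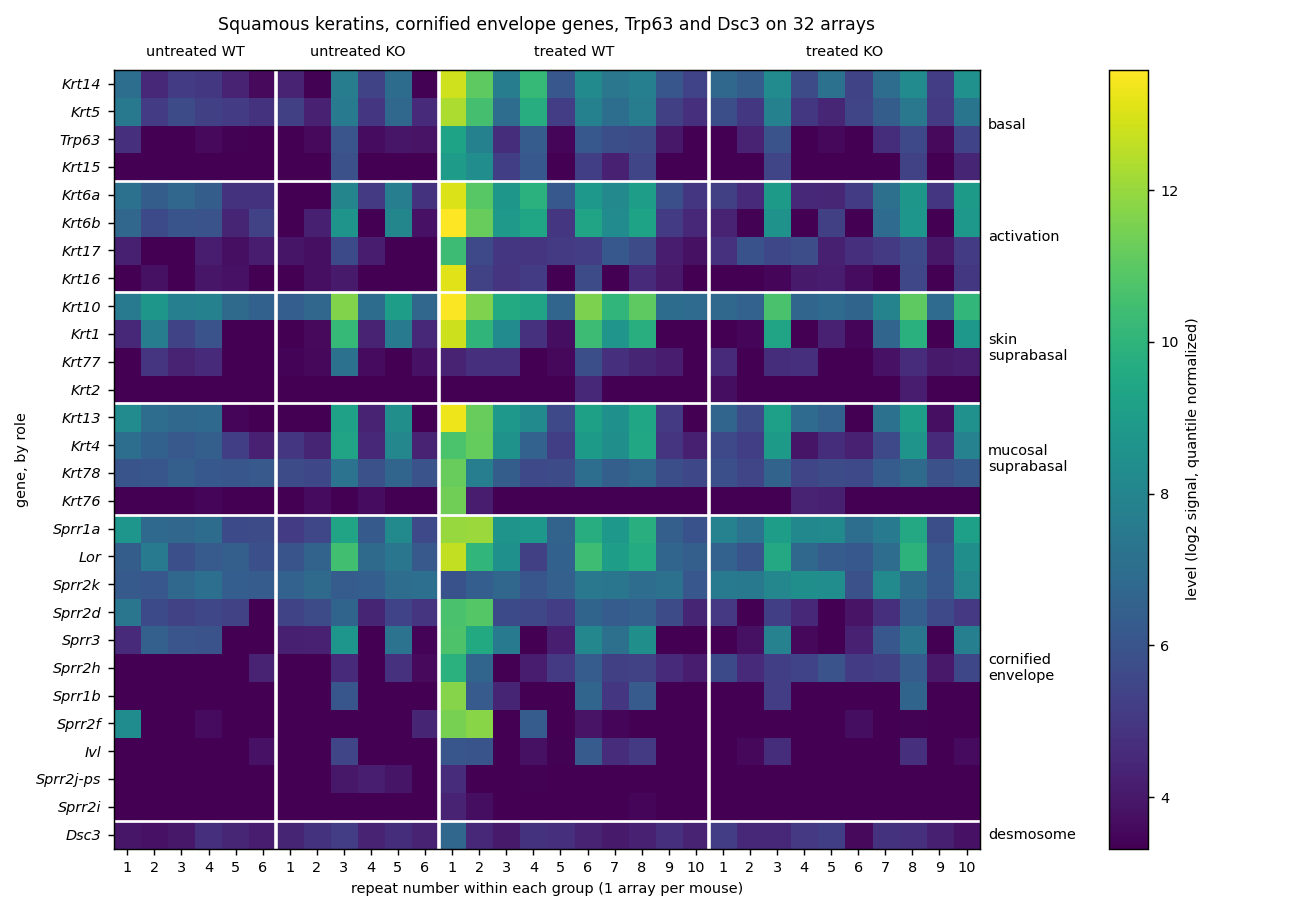
Log2 signal (colour) of the 28 genes of squamous epithelium (rows, by role) on the 32 arrays (columns, by group and repeat). Treated WT repeats 1 and 2 are bright for most rows, and untreated KO repeat 3 and treated KO repeats 3, 8 and 10 also stand out in the basal, activation and suprabasal rows.

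In WT mice all 28 differences between treated and untreated means were positive, with a median of 1.82 beside 0 over all genes, but Krt14 was the lone call. Over all genes 8653 differences were positive and 8856 negative. Treated WT arrays above all untreated WT arrays ranged from 1 of 10 (Krt2 and Krt77) to 8 of 10 (Krt17). Most of the 28 genes were bright on the same arrays, so they are not 28 separate results. Over all 61 members 2 genes passed, Krt14 and Krt7 (3.28%), against 1.82% of all genes. The count was 0 without untreated WT repeat 2, 5 or 6. It was 1 without treated WT repeat 2, 4, 6 or 7, treated KO repeat 1, 2, 5, 7 or 8, untreated WT repeat 3 or 4, or untreated KO repeat 1 or 4. At an unadjusted p under 0.05 there were 19 members (31.1%), all higher, beside 14.9% of all genes (1226 higher and 1484 lower). The 14 skeletal muscle genes were likewise all higher in this contrast (median 1.30), none called. Their part in the squamous differences was not tested.

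Among the basal genes, Krt14 read 3.60 to 7.02 in untreated WT (median 4.74) and 5.40 to 12.86 in treated WT mice (median 7.70), and 7 of 10 treated arrays lay above all untreated ones. The difference was 3.35 ± 0.90 (adjusted p = 0.0473), and the exact permutation test gave p = 0.0025 (0.00436 after adjustment over 14 tests). Those 14 tests were run on results that had passed limma in the same values, so they are not independent support. The limma call held in 20 of 45 settings and in 14 of 32 fits that left out 1 array. The difference was 2.43 (adjusted p = 0.105) without treated WT repeats 1 and 2. With the mean of 27 other squamous genes as a covariate, a setting added after the data were seen, it was 1.36 (adjusted p = 0.359), and with the skeletal muscle mean as a covariate 3.045 (adjusted p = 0.0851). In KO mice Krt14 read 3.38 to 7.68 untreated (median 4.88) and 5.21 to 8.52 treated (median 6.88), a difference of 1.68 ± 0.90 (adjusted p = 0.208). Krt5, its partner, differed by 2.14 ± 0.87 in WT (adjusted p = 0.223) and 0.41 ± 0.87 in KO mice (adjusted p = 0.821). Trp63 differed by 2.05 ± 0.67 and 0.23 ± 0.67 (adjusted p = 0.115 and 0.885). All 3 were highest on treated WT repeat 1.

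The activation keratins, made by keratinocytes after wounding, spread as widely. Krt6a read 4.82 to 7.21 in untreated WT (median 6.36), 3.32 to 8.00 in untreated KO (median 4.95), 4.93 to 13.06 in treated WT (median 8.78) and 4.41 to 8.92 in treated KO mice (median 5.18). Krt6b ran from 4.51 to 13.59 in treated WT mice. Krt16 and Krt17 were different: on treated WT repeat 1 they read 13.13 and 10.37, while the next highest treated WT arrays read 5.72 and 6.15. None of the 4 was called in WT mice, where their differences lay between 1.69 and 2.77, or in KO mice, where they lay between 0.37 and 1.06. Krt17 differed by 1.06 ± 0.59 in KO mice (adjusted p = 0.229), and passed in a fit without treated WT repeats 1 and 2 (adjusted p = 0.0335).

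The suprabasal keratins showed the same arrays. Krt1, of the upper layers of skin, read 3.32 to 7.63 in untreated WT (median 4.97), 3.32 to 10.20 in untreated KO (median 4.44), 3.32 to 12.80 in treated WT (median 8.47) and 3.32 to 9.84 in treated KO mice (median 3.88). Its partner Krt10 was not at the floor on any array and read 6.66 to 13.54 in treated WT mice (median 9.83). Krt13 and Krt4, of moist mucosa, read up to 13.35 and 11.16 there. The differences in WT mice were 2.48 ± 1.44 for Krt1, 2.19 ± 0.97 for Krt10, 2.32 ± 1.26 for Krt13 and 1.86 ± 1.02 for Krt4 (limma, adjusted p = 0.437, 0.279, 0.399 and 0.402). In KO mice Krt1, Krt10 and Krt4 differed by -0.012, 0.115 and -0.003, and Krt13 by 1.37 ± 1.26 (adjusted p = 0.511). Krt76 read 11.35 on treated WT repeat 1 and no more than 4.34 on any other array, and Krt78 read 11.19 there against 7.72 on repeat 2. Krt77 was highest on untreated KO repeat 3, at 7.14.

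The genes of a layer did not all appear together on every array. On treated WT repeat 4 Krt14 read 10.21, Krt5 9.73, Krt6a 9.90 and Trp63 6.31, but the activation keratins Krt16 and Krt17 read 5.11 and 4.87. Of the upper layers and the envelope, Krt10 read 9.33, Krt13 8.23 and Sprr1a 8.81 there, while Krt1 read 4.79, Lor 5.28 and Sprr3 3.34. That array also had the highest mean of the 14 skeletal muscle genes, 10.04. On treated WT repeat 1 the muscle mean was 5.48 and the mean of the 28 squamous genes 10.03. Treated KO repeat 9 and untreated WT repeat 3 had muscle means of 9.41 and 9.20, and squamous means of 4.28 and 4.82. Untreated KO repeat 3 was high in both, at 8.10 and 6.72. Untreated WT repeat 1 read 7.02 for Krt14, 8.29 for Krt13 and 8.33 for Sprr2f but 4.51 for Krt1. Sprr2f reached 11.49 and 11.78 on treated WT repeats 1 and 2 and 6.32 on repeat 4, and stayed at or below 4.37 on the other 28 arrays. The cause of these partial patterns was not tested.

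The cornified envelope genes rose in no contrast against untreated mice. In WT mice all 11 differences were positive (median 1.32), and in KO mice 5 were positive, 5 negative and 1, Sprr2i, equal with all KO arrays at the floor (median 0). Lor, the main protein of the envelope, read 5.81 to 7.55 in untreated WT (median 6.31), 5.97 to 10.47 in untreated KO (median 6.74), 5.28 to 12.66 in treated WT (median 8.76) and 5.99 to 9.94 in treated KO mice (median 6.66). Its differences were 2.14 ± 0.87 in WT and 0.03 ± 0.87 in KO mice (adjusted p = 0.225 and 1). Sprr1a read 5.64 to 8.72 in untreated WT (median 6.78), 5.16 to 9.32 in untreated KO (median 5.91), 5.89 to 12.03 in treated WT (median 8.81) and 5.80 to 9.53 in treated KO mice (median 8.00). It differed by 2.12 ± 0.82 in WT and 1.29 ± 0.82 in KO mice (adjusted p = 0.201 and 0.302). Treated KO repeats 1, 4 and 5 read 3.32, 3.32 and 4.26 for Krt1 and 7.89, 8.11 and 8.24 for Sprr1a. Treated WT repeats 3 and 7 read 8.28 and 8.66 for Krt1 and 8.64 and 8.81 for Sprr1a. Sprr2h, singled out after its values were seen, read the floor on 5 of 6 untreated WT arrays and on 3 of 6 untreated KO arrays, but on 1 treated WT array and no treated KO array. Its differences were 1.97 ± 0.59 and 1.49 ± 0.59 (adjusted p = 0.0803 and 0.0757), and the KO difference passed without treated WT repeats 1 and 2 (adjusted p = 0.00382). Its probe set may also bind other transcripts of the family.

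In KO mice 7 members passed against untreated mice, 6 higher and 1 lower (11.5% of 61, against 18.7% of all genes). They were the 4 simple keratins, 2 hair follicle and nail keratins that rose and 1 that fell, and none of the 28 genes of squamous epithelium, whose median difference was 0.09 with 17 higher, 10 lower and 1 equal. Without treated WT repeat 1, which entered through the shared estimate of spread, the count was 11. Krt84, a nail and tongue keratin, read 3.66 to 5.41 in untreated KO (median 4.43) and 4.85 to 6.42 in treated KO mice (median 5.75), with 8 of 10 treated arrays above the untreated ones. It rose by 1.29 ± 0.22 (adjusted p = 0.000177, limma) and passed in all 44 settings. Untreated WT mice read 4.13 to 5.40 (median 5.20), and untreated KO minus untreated WT was -0.64 ± 0.24 (adjusted p = 0.568). In WT mice the difference was 0.59 ± 0.22 (adjusted p = 0.178). Treated KO minus treated WT was 0.06 (95% interval -0.33 to 0.45), so the treated genotypes ended at similar levels.

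Krt36, another hair keratin, rose in treated KO mice and stood above treated WT mice as well. It read 3.32 to 5.52 in untreated WT (median 4.63), 3.32 to 5.77 in untreated KO (median 5.23), 3.83 to 5.93 in treated WT (median 5.34) and 5.29 to 7.62 in treated KO mice (median 6.38). Of the treated KO arrays 7 of 10 lay above all untreated KO arrays, and 7 of 10 above all treated WT arrays. The rise was 1.40 ± 0.40 (adjusted p = 0.0125), lost without untreated KO repeat 1, and the genotype difference after treatment 1.14 ± 0.34 (adjusted p = 0.0265), lost without treated WT repeat 2 or 10 or treated KO repeat 4 or 5 (adjusted p up to 0.0604). Krt42 was the member that fell. It read 8.51 to 9.42 in untreated KO (median 8.79) and 8.42 to 8.73 in treated KO mice (median 8.57), a difference of -0.35 ± 0.11 (adjusted p = 0.0191). The high values were 9.38 and 9.42 on untreated KO repeats 2 and 5, and without either the call was lost (adjusted p up to 0.0865). The other probe set of Krt42 differed by -0.02.

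The remaining 19 of 22 hair follicle and nail keratins were not called in any contrast, and neither were the 6 other keratins. Krt32 and Krt81, the brightest of the first set not yet named, stayed between 5.11 and 6.32 and between 6.04 and 7.22. Among the others Krt80 and Krt23 were highest on treated WT repeat 1, at 9.28 and 8.48, and differed in WT mice by 0.82 ± 0.38 and 0.67 ± 0.37 (adjusted p = 0.304 and 0.409). Krt88 stayed between 4.93 and 6.87.

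Between treated KO and treated WT mice 5 members passed, 4 higher and 1 lower in KO (8.2% of 61, against 12.8% of all genes). These contrasts share the treated arrays with those above. The 4 higher were Krt7, Krt20, Krt36 and Sprr2k, and the lower was Sprr2d. The count was 2 without treated WT repeat 2 or treated KO repeat 4 or 5, and 3 without treated WT repeat 1 or 8 or treated KO repeat 2. The calls of Krt7 and Krt20 remained in each of these. Of the 28 genes of squamous epithelium 26 had lower means in treated KO mice (median -1.36), with 1 called in each direction. Over all genes 8668 were lower and 8922 higher in treated KO mice, and most of the 28 share the same bright arrays. Of the 14 skeletal muscle genes 12 had lower means there (median -0.49), none called.

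The 2 Sprr genes called between the treated genotypes went opposite ways. Sprr2d read 3.35 to 7.34 in untreated WT (median 5.42), 4.37 to 6.63 in untreated KO (median 5.40), 4.40 to 10.86 in treated WT (median 6.02) and 3.32 to 6.37 in treated KO mice (median 4.89). Treated WT repeats 1 and 2 read 10.65 and 10.86, and the next highest array of that group 6.63. Treated KO minus treated WT was -2.04 ± 0.66 (adjusted p = 0.0394), and -1.03 without those arrays (adjusted p = 0.146). The call held in 23 of 32 fits that left out 1 array. With the mean of the other squamous genes as a covariate it was -1.14 (adjusted p = 0.116).

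Sprr2k did not follow the bright arrays. It read 6.09 to 7.07 in untreated WT (median 6.35), 6.32 to 7.09 in untreated KO (median 6.70), 5.90 to 7.44 in treated WT (median 6.60) and 5.86 to 8.45 in treated KO mice (median 7.81). On treated WT repeat 1 it read the lowest value of its group, and 7 of 10 treated KO arrays lay above all treated WT arrays while 1 lay below them. Treated KO exceeded treated WT by 0.85 ± 0.28 (adjusted p = 0.0458). The call held in 15 of 45 settings and in 11 of 32 fits that left out 1 array, with a difference between 0.72 and 1.03 throughout. Sprr2d and Sprr2k carry the TATA box at the same distance from the start, and an AP-1 motif 193 bases before it in Sprr2d and 196 and 182 bases before it in Sprr2k.

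**Figure D3:**
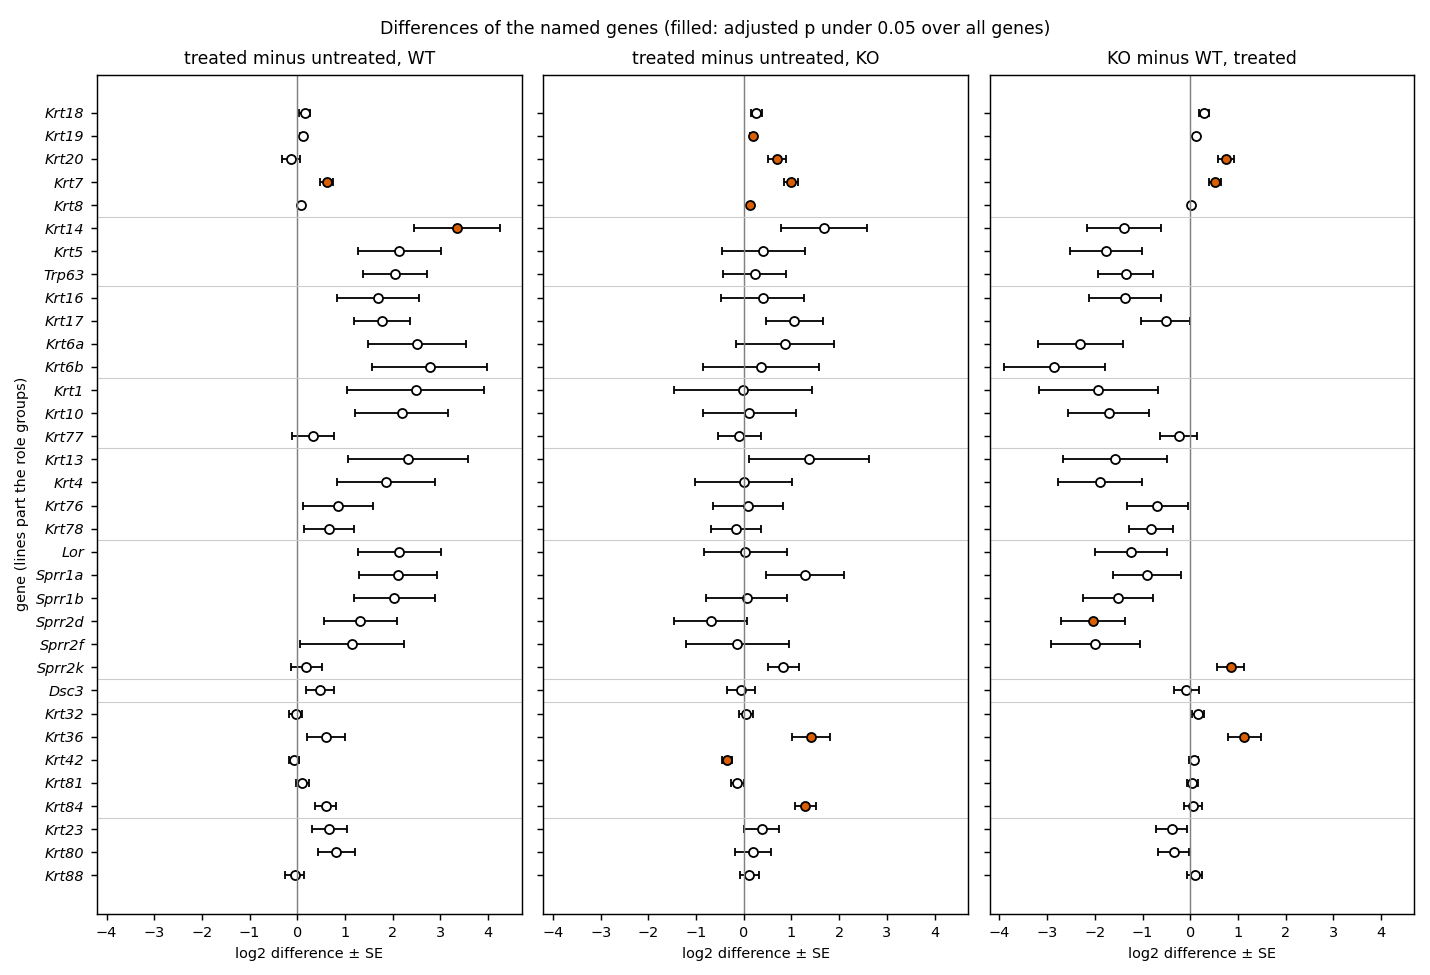
Log2 differences (horizontal axis) with their standard errors for the 34 named members (rows, by role) in 3 contrasts, filled where the adjusted p over all genes was under 0.05. The simple keratins have short error bars, and most basal, activation, suprabasal and cornified envelope genes have positive differences in WT mice with wide bars, of which Krt14 alone is filled. Sprr2k (0.19) and Krt77 (0.33) lie near 0 there.

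No member was called between the untreated genotypes, where 0.115% of all genes were (0.0385% higher and 0.077% lower in KO). At an unadjusted p under 0.05 there were 4 of 61 members (6.56%), beside 7.16% of all genes. No member was called for the difference between the KO and WT responses either, where 0.055% of all genes were (0.0495% positive and 0.0055% negative). There 4 of 61 members (6.56%) had an unadjusted p under 0.05, beside 11.7% of all genes. Of the 28 genes of squamous epithelium 26 had a smaller response in KO mice (median -1.29), none of them called. Over all genes 9109 had a smaller and 8696 a larger response in KO mice. Most of the 28 genes were bright on the same arrays, so they are not 28 separate results. All 14 skeletal muscle genes had a smaller response in KO mice too (median -0.91), none called. Lor differed by -2.11 ± 1.23 (adjusted p = 0.525) and Trp63 by -1.82 ± 0.94 (adjusted p = 0.456).

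Other genes of squamous differentiation, not members, were read from a fixed list of which 27 were measured. It was a mixed list with desmosomal and enzyme genes, so a call from it need not mark squamous differentiation. In WT mice 25 of 27 differences were positive (median 1.41), and Gsta4, a glutathione transferase, alone passed, rising by 0.98 ± 0.26 (adjusted p = 0.0409). In KO mice the median was 0.27 and 5 rose. Sfn, the 14-3-3 protein stratifin, rose by 1.70 ± 0.35 and Pkp3, a desmosomal plaque protein, by 0.68 ± 0.15 (adjusted p = 0.00111 and 0.00154). Jup, plakoglobin of the same plaque, rose by 0.62 ± 0.20 (adjusted p = 0.0277). Perp, the brightest not called, differed by 0.23 ± 0.19 in KO mice. Between treated genotypes Anxa8 was higher in KO by 0.60 ± 0.18 (adjusted p = 0.0225), the lone call. Over all genes 0.605% rose in WT and 8.69% in KO mice, and 6.24% were higher in treated KO than in treated WT mice.

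The 12 genes that best followed the mean of the 28 squamous members over the 32 arrays, of 10891 above the 40th percentile of signal, were Dmkn, Crct1, Lce3f, Cnfn, Fam25c, Arg1, Ly6d, Sbsn, Fabp5, Trim29, Asprv1 and Lgals7, with r from 0.963 to 0.925. Dmkn ran from 4.69 to 12.47 and Crct1 from 3.42 to 12.33. The genes share the same bright arrays, so these correlations are a description. In the other direction, each member was set against the mean of the 27 listed genes. Krt10, Lor, Sprr1b and Trp63 followed it with r of 0.949, 0.946, 0.942 and 0.923, and without treated WT repeats 1 and 2 with r of 0.962, 0.93, 0.892 and 0.861. Krt76 and Sprr2f gave 0.646 and 0.572 with those arrays and -0.164 and -0.057 without. Sprr2k, Krt36 and Krt84 gave -0.009, 0.115 and 0.217, and the simple keratins lay between -0.406 (Krt20) and 0.11 (Krt7). These values also moved without treated WT repeats 1 and 2, to 0.285, 0.167 and 0.146, and to between -0.043 (Krt20) and 0.293 (Krt8).

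**Figure D4:**
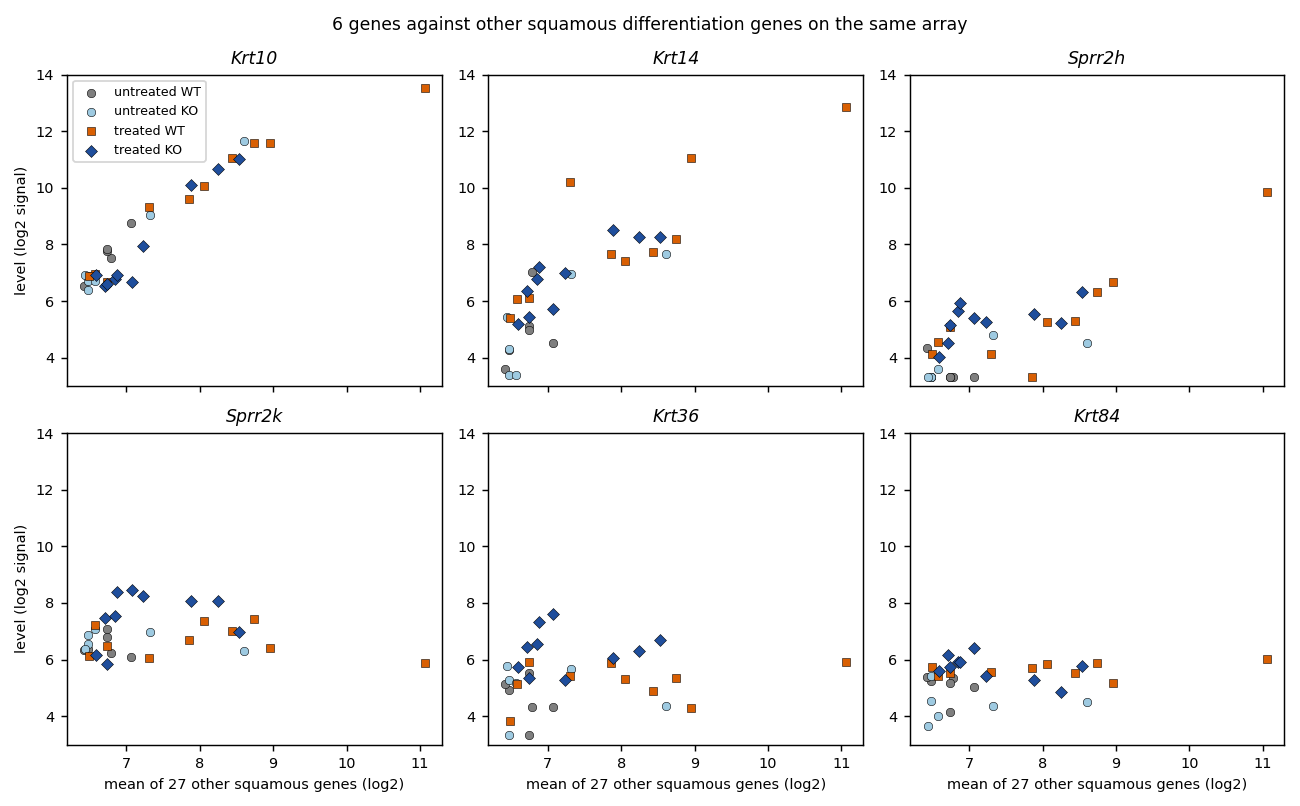
Log2 signal of 6 members (vertical axis) against the mean of 27 other squamous differentiation genes on the same array (horizontal axis, log2), 1 point for each of 32 arrays. Krt10 and Krt14 climb with that mean over the 32 arrays, while Sprr2k, Krt36 and Krt84 do not follow it. Sprr2k and Krt36 are high on some treated KO arrays where it is low, but not on repeats 6 and 9.

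Several probe sets measured 13 of the members. Of their 20 further probe sets, 18 had the sign of the probe set used in the WT response, 12 in the KO response and 19 between the treated genotypes. Krt14 differed by 3.24 in WT mice on a further probe set and by 0.27 on its dimmest. The 2 other probe sets of Krt8 differed by 0.27 and 0.12 in KO mice. Keratins and Sprr proteins are families of similar sequence, so that a probe set may also bind transcripts of a relative. The probe sets of Sprr2a carried several symbols, as did 1 shared by Krt17 and Krt14, and lay outside the rule.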

How the data were processed

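Total RNA of the distal colon was measured on Affymetrix expression arrays in 32 mice, in 4 groups taken from the labels. The values deposited by the authors were log2 signals of 45101 probe sets. The software that summarised them is not given in the sources used here. From the values, each array had been scaled to a 2% trimmed mean of the linear signal of 150.9 to 151.3, and signals under 10 had been raised to 10, so differences among dim genes are hidden. Between 18.7% and 23.9% of an array's probe sets lay at that floor, and array medians ran from 5.17 to 5.53. The deposited log2 values were quantile normalized here.

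Symbols came from the platform annotation (34958 probe sets with 1 symbol, 932 with several, 9211 with none). All 61 members matched current RefSeq names. The package limma 3.58.1 (R 4.3.3) fitted the 4 group means for 18193 genes, with 1 spread shared by the groups (28 residual and 1.1 prior degrees of freedom). The two-sided p-values were adjusted over all genes (Benjamini-Hochberg), and a gene passed, or was called, under 0.05. Only results that had passed were also tested by permuting mice (exact, or 100000 resamples with 10 mice a side) with SciPy 1.17.1. The script was tested on simulated data.

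Members, role groups and marker lists were chosen with earlier results of these data known. Named members were the simple keratins, every member called, the 3 brightest of each role and the 10 with the widest range; marker lists gave up to 3 called genes and the brightest not called, and the 12 genes most like the squamous mean were added. Alternatives were other scalings, filters, probe set rules, weights, covariates, a replicate block, other thresholds and leaving out arrays. The series text calls the arrays biological repeats. Precision is limited by the number of arrays.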

Additional observations from a re-analysis of the deposited data

Results flagged for a closer look

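Of 135 groups of values tested over the 34 named members, 24 had a highest or lowest array set far apart by Dixon's criterion. For normally distributed values chance alone meets it in about 5% of groups. That rate does not apply here, since members were named partly for a wide range and many values lay at the floor. No cause is given here.

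Treated WT repeat 1 was the high array for Krt16 at 13.13, Krt17 at 10.37, Krt76 at 11.35, Krt78 at 11.19, Sprr1b at 11.72 and Dsc3, a desmosomal cadherin, at 6.70. It was the low array for the simple keratins Krt20 at 10.68 and Krt8 at 13.31. Untreated KO repeat 3 was the high array for Krt17 at 5.63, Krt77 at 7.14, Lor at 10.47, Sprr1b at 6.08 and Trp63 at 6.03. Untreated WT repeat 1 was the high array for Krt5 at 7.46, Sprr2f at 8.33 and Trp63 at 4.72. Untreated WT repeat 2 was high for Lor at 7.55 and low for Krt80 at 5.56, and untreated WT repeat 4 was high for Krt76 at 3.51 and low for Krt84 at 4.13. Sprr2f was high on untreated KO repeat 6 at 4.37 and on treated KO repeat 6 at 3.70. Treated KO repeat 3 was low for Krt19 at 12.86, and treated KO repeat 7 was low for Krt88 at 4.93.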

How the results depend on the processing

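The counts of members called depended on the setting. The share of all genes called under each setting is not given here, so a moved count is not by itself a result about the members. In WT mice the count was 2, and it became 1 in the values as deposited, with arrays centred on their medians, with the mean of a gene's probe sets, with the compared groups only and with the skeletal muscle covariate. It became 9 with array weights, 7 with 1 variance per group, and 0 with the covariate of control probe sets and at an adjusted p under 0.01. In KO mice the count was 7, and became 4 with median centring, 4 at 0.01, 11 at 0.10 and 11 without treated WT repeats 1 and 2. Between treated genotypes it was 5, and became 8 with median centring, 3 with the compared groups only, array weights, the skeletal muscle covariate or the other squamous genes as covariate (a setting chosen after the data were seen). It became 2 with 1 variance per group, the control probe covariate, a threshold of 0.01 or without treated WT repeats 1 and 2, and 9 at 0.10. Leaving out each array in turn gave counts from 0 to 2 in WT, 6 to 11 in KO and 2 to 7 between treated genotypes, and 0 throughout for the untreated genotypes and the interaction. The Krt14 difference of the permutation test ran from 2.84 to 3.77.

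Of 627 values for 14 single results, 527 kept direction and call, 97 lost the call and 3 turned: Krt19 in KO mice at -0.087 as deposited, and Krt8 in KO mice at -0.091 as deposited and -0.003 with median centring. The cause was not tested. Of all genes called in KO mice 46.4% were higher, 39.1% as deposited and 65.8% with median centring; between treated genotypes the shares were 48.7%, 41.8% and 74.6%. Deviations from the group means on same-numbered repeats had r between -0.166 and 0.343. The labels do not describe pairs, and these values cannot exclude a pairing of the mice. With a replicate block the counts were 2 in WT, 5 in KO and 4 between treated genotypes, and 0 in both other contrasts. The block ended the calls of Krt19 and Krt42 in KO mice (adjusted p = 0.0542 and 0.0579) and of Sprr2k between treated genotypes (adjusted p = 0.0778). The floor limits what can be seen of dim members: 40 of 61 were at it on at least 1 array, and 25 lay above the 40th percentile of signal.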
